A study of Mus musculus with 7 samples.

Results

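Sox15, Sox9, Bcl11b, Tfap2a, Tfap2c, Gata3, Klf4, Ovol1 and Bnc1, 9 transcription factor genes of the epidermal lineage, were followed in mouse primary keratinocytes whose Trp63 had been silenced. Every probe set with 1 of these symbols as its only gene in the platform annotation was taken. All 9 genes were found, with 16 of the 22626 probe sets tested and 9 of 12393 genes. Sox15, Bcl11b, Gata3 and Bnc1 had 1 probe set each, Sox9, Klf4 and Ovol1 had 2, and Tfap2a and Tfap2c had 3.

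Primary keratinocytes are cells grown directly from skin epithelium. Small interfering RNA (siRNA) directed at Trp63 was given to 5 samples (replicates 1, 2, 3, 4 and 7) and a non-specific siRNA to 2 samples (replicates 5 and 6), and RNA was taken 48 h later for 1 Affymetrix array each. All 7 samples had thus been transfected, and no untransfected cells were analysed here. The sources used here give neither the strain, sex or age of the mice nor whether replicates were separate cultures. The spread behind each p-value is thus that of these samples and may be technical, and 2 control arrays limit the precision of each difference.

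p63, the protein of Trp63, is a DNA-binding protein of the p53 family that stratified epithelia need to form and to renew themselves. The 9 factors belong to the same lineage, and whether they act before, beside or after p63 was not tested. Tfap2a and Tfap2c encode AP-2 proteins, which act at promoters of basal keratins, and Bnc1 encodes basonuclin, a zinc finger protein of proliferating basal cells. Bcl11b and Sox15 encode factors expressed in basal epidermis, Sox9 marks the outer root sheath and stem cells of the hair follicle, and Gata3, Klf4 and Ovol1 encode factors of differentiation and of the skin barrier.

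Sox15 and Bcl11b fell to between 47.5% and 61.3% of the control level on the silenced arrays, Tfap2c fell by less, and Sox9 rose 1.27-fold. Taking the brightest probe set of each gene, 3 of 9 genes fell, 1 rose and 5 did not pass at an adjusted p of 0.05 (limma, adjusted over all 22626 probe sets). Among all 12393 genes 8.57% fell and 8.03% rose under the same rule, 16.6% in all. The median log2 difference was -0.21 for the 9 genes and -0.04 for all genes. All 16 probe sets were at or above the 57.4th percentile of mean level, and among genes at or above the median level 11.0% fell and 12.1% rose, 23.1% in all. With so few genes, chosen with earlier results of these data in view, the counts are a description.

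**Figure D1:**
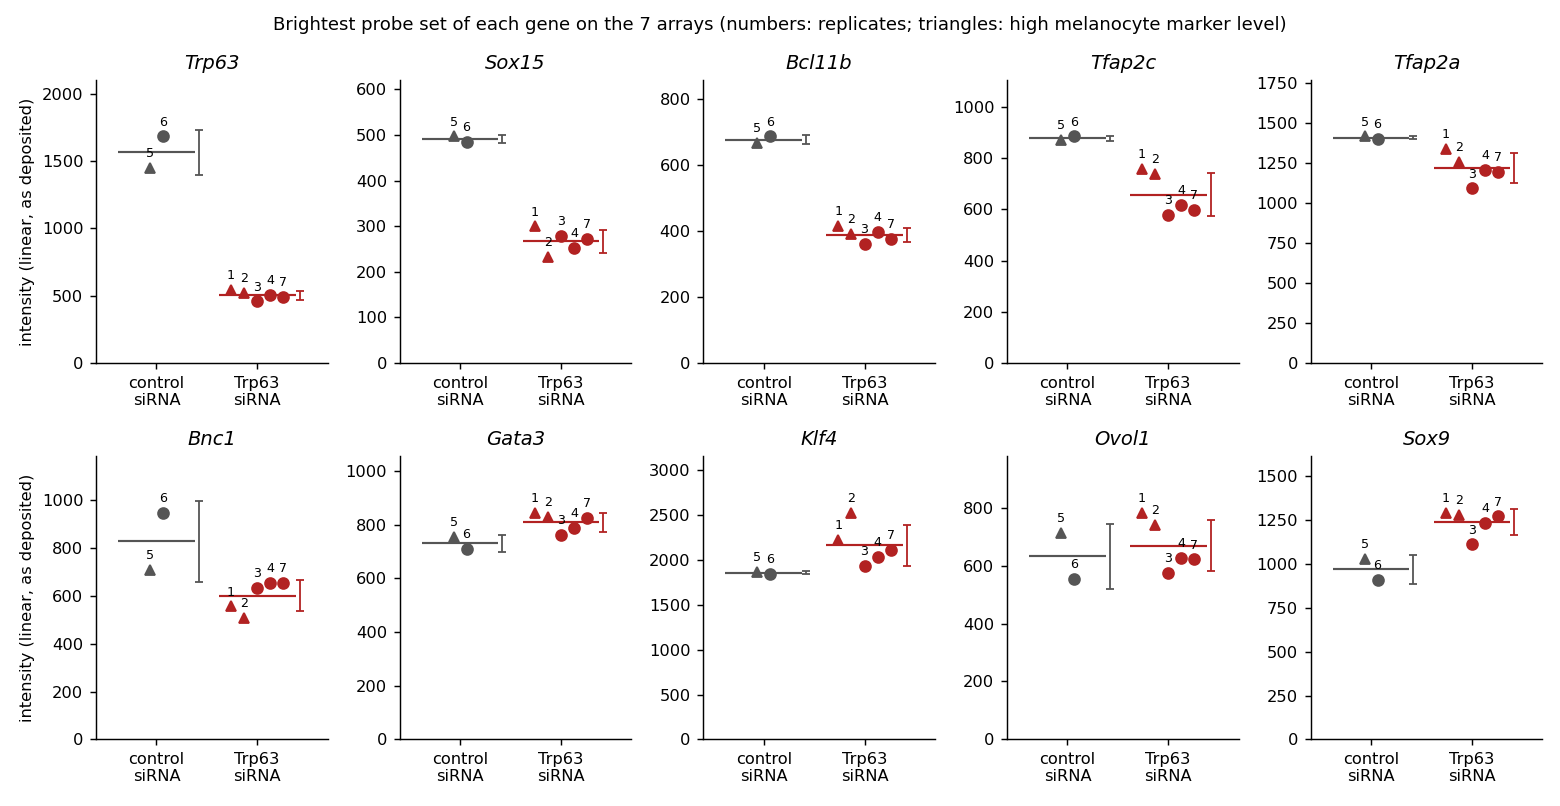
Deposited intensity (linear axis from 0) of the brightest probe set of Trp63 and of the 9 genes on each array, control siRNA in grey and Trp63 siRNA in red, with horizontal bars at group means, error bars of 1 SD (n = 2 and n = 5) and replicate numbers above the points. Triangles mark the 3 arrays of high melanocyte marker level; Sox15 and Bcl11b were below both controls on all 5 silenced arrays, whereas Ovol1 overlapped and followed the triangles.

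Silencing was measured at Trp63 first. Its brightest probe set read 541, 519, 457, 504 and 492 in silenced replicates 1, 2, 3, 4 and 7 against 1447 and 1683 in control replicates 5 and 6. The level left ran from 29.2% of the control mean in replicate 3 to 34.5% in replicate 1, a narrow range at this probe set. The other 2 probe sets of Trp63 were dim, at 163 and 139 on silenced arrays against 235 and 209 in controls. Their mean levels lay at the 44.7th and 38.8th percentiles, where the log2(intensity + 16) scale understates a change. They fell to 69.4% and 66.5%, with replicate 2 lowest at both (62.1% and 61.2%) and replicate 3 at 73.3% and 69.8%.

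The arrays also differed in a way that the groups do not explain. The mean log2 level of 12 measured melanocyte markers was 8.86 to 8.95 in silenced replicates 1 and 2 and control replicate 5, and 8.48 to 8.52 in silenced replicates 3, 4 and 7 and control replicate 6. Both groups therefore had arrays on both sides of this split, which was defined from the data and bears no label. In bulk RNA, fewer cells of a type and less RNA per cell cannot be told apart. Of the 16 probe sets of the 9 genes, 12 were higher and 1, that of Bnc1, was lower in the arrays of high level in both groups. Some of the 12 differed little between the 2 controls, such as the dimmest of Tfap2c (log2 difference 0.0083) and the brighter of Klf4 (0.017). The share of all probe sets with this pattern was not counted, so it is not read as a trait of these genes. Values within each side of the split are given below for each of the 9 genes. Each side has 1 control, so they carry no test of their own. Silenced replicate 1 also stood somewhat apart, with a correlation of 0.984 with replicate 3 over all probe sets, against 0.999 between replicates 4 and 7.

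The samples carried the markers of their label, and melanocyte signal as well. Dct, Pmel and Tyrp1 read 3101, 1872 and 1817 in controls, while 4 of 12 melanocyte markers lay below the control arrays' median. Krt5 and Krt14, the basal keratin pair, read 14460 and 17063 in controls, and of 11 measured keratinocyte markers 10 fell, 1 rose and none failed to pass. Their summed intensity was 47088 to 51363 on silenced arrays and 63945 to 66353 on control arrays.

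The SOX genes went opposite ways. Sox15 encodes a small SOX protein of the basal layer. It read 299.5, 233, 279, 252 and 272 in silenced replicates 1, 2, 3, 4 and 7, against 497 and 484 in control replicates 5 and 6. All silenced arrays lay far below both controls. The log2 difference was -0.84 (SE 0.092, limma adjusted p = 0.00041), a 1.80-fold decrease. Among the silenced arrays replicate 2 was lowest, at 47.5% of the control mean, and replicate 1 highest, at 61.1%. The fall was -0.87 in the arrays of high melanocyte level and -0.82 in those of low level.

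The promoters of Sox15 and Klf4 are shown as a pair because Sox15 fell under every setting and Klf4 did not fall under any. RefSeq windows (GRCm38.p6) were matched for 6 of the 9 genes, and the 250 bases before the gene start are given 5′ to 3′ on the gene's strand, chr11:69654787-69655036 (plus) for Sox15 and chr4:55532476-55532725 (minus) for Klf4. Capitals mark matches on either strand to the core of p53 family sites, here 2 copies of CNNG with any 6 bases between, where N is any base.
Sox15: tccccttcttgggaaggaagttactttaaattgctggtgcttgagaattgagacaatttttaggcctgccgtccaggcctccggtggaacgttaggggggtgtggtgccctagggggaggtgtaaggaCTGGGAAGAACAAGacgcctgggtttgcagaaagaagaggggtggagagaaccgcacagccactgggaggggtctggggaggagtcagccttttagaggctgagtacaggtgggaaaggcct
Klf4: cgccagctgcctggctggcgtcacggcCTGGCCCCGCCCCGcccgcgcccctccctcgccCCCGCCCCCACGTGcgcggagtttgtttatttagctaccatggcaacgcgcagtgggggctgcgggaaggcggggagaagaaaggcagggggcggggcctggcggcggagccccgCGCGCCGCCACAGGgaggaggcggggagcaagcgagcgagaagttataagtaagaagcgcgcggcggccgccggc
Sox15 had 1 match, 122 to 109 bases before its start, and Klf4 had 3. The pattern occurred in 63.5% of all 32851 promoter windows of this length. The window of Bnc1 held 8. The windows of Bcl11b, Gata3 and Tfap2a precede starts that lie inside the annotated gene spans and are not described. The AP-2 pattern GCCNNNGGC, found in 13.7% of windows, occurred once in the windows of Klf4 and Bnc1 and was not found in that of Sox15. The KLF pattern GGGNGNGG, found in 45.9%, occurred 3 times in Sox15 and 9 times in Klf4, where matches overlapped each other and the capitals. G and C made up 55.6% of the Sox15 window, 74% of that of Klf4 and 83.6% of that of Bnc1. The fixed letters of these patterns are all C or G. The shares of windows above count any match, so they do not gauge the number of matches in a window. These matches describe letters in a window and do not show binding.

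Sox9, the hair follicle factor, was measured by 2 probe sets that agreed in direction. The brighter read 1291, 1277, 1110.4, 1233 and 1270.3 in silenced replicates 1, 2, 3, 4 and 7, against 1028 and 909 in control replicates 5 and 6. The silenced arrays were all above both controls, with replicate 3 the nearest to them. The log2 difference was 0.35 (SE 0.081, limma adjusted p = 0.0193), a 1.27-fold rise. The dimmer probe set read 891, 889.7, 801, 814 and 807 against 687 and 639 and differed by 0.34 (SE 0.075, limma adjusted p = 0.0161). The calls rested on few arrays. For the brighter Sox9 probe set limma's adjusted p was 0.177 with control replicate 6 left out and 0.0517 with silenced replicate 7 left out, in a range of 0.00367 to 0.177 over all settings. For the dimmer one it was 0.143 and 0.055 with control replicate 6 and 5 left out, in a range of 0.00163 to 0.143. Among 12 hair follicle markers 1 rose (Krt79), 1 fell (Hoxc13) and 10 did not pass, with a median log2 difference of 0.02. Their summed intensity was 2593 to 4057 on silenced arrays against 2082 to 2146 on controls. Krt79 alone averaged 1245 against 152, and 9 of the 12 lay below the control arrays' median. The sum therefore does not describe the list as a whole. The part of these markers in the Sox9 result was not tested. On the sides of the split the brighter probe set differed by 0.32 (high) and 0.40 (low) and the dimmer by 0.37 and 0.33.

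Among 16 measured SOX relatives, 2 rose and 1 fell, all dim. Sox11, a factor of progenitor cells, read 115 against 87.3 (log2 difference 0.34, limma adjusted p = 0.0183), Sox2 93.7 against 84.2 (0.13, limma adjusted p = 0.0319) and Sox6 87.7 against 98.7 (-0.15, limma adjusted p = 0.0244). No SOX relative passed in either direction when control replicate 5 or 6 was left out. Sox4 was bright, at 1888 against 1547, and did not pass (0.28, limma adjusted p = 0.132).

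Bcl11b encodes a zinc finger repressor known from T cells and from basal epidermis. It read 415, 392, 361, 397 and 378 in silenced replicates 1, 2, 3, 4 and 7, against 668 and 688 in control replicates 5 and 6. No silenced array came near a control. The log2 difference was -0.78 (SE 0.072, limma adjusted p = 0.000169), a 1.72-fold decrease that left 57.3% of the control level. On the sides of the split the fall was -0.70 (high) and -0.84 (low). Sox15 and Bcl11b were the members that passed under each of the 19 other settings tried, with log2 differences from -0.89 to -0.75 and from -0.80 to -0.71. Of 14 markers of T cells and other immune cells, 12 lay below the control arrays' median, 1 rose (Cd68, 0.60, limma adjusted p = 0.024) and 1 fell (Tyrobp, -0.20, limma adjusted p = 0.0178). The T cell receptor complex genes Cd3g, Cd3d and Cd3e read 86.7, 96.3 and 324 in controls and 83.3, 96.5 and 284 on silenced arrays, Cd3e without passing (limma adjusted p = 0.075), and the summed level of the list was 2145 to 2408 on silenced arrays and 2242 to 2351 on controls. The part of these cells in the Bcl11b result was not tested. Its relative Bcl11a read 199.5 against 248 and just missed the threshold (-0.30, limma adjusted p = 0.0500096).

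**Figure D2:**
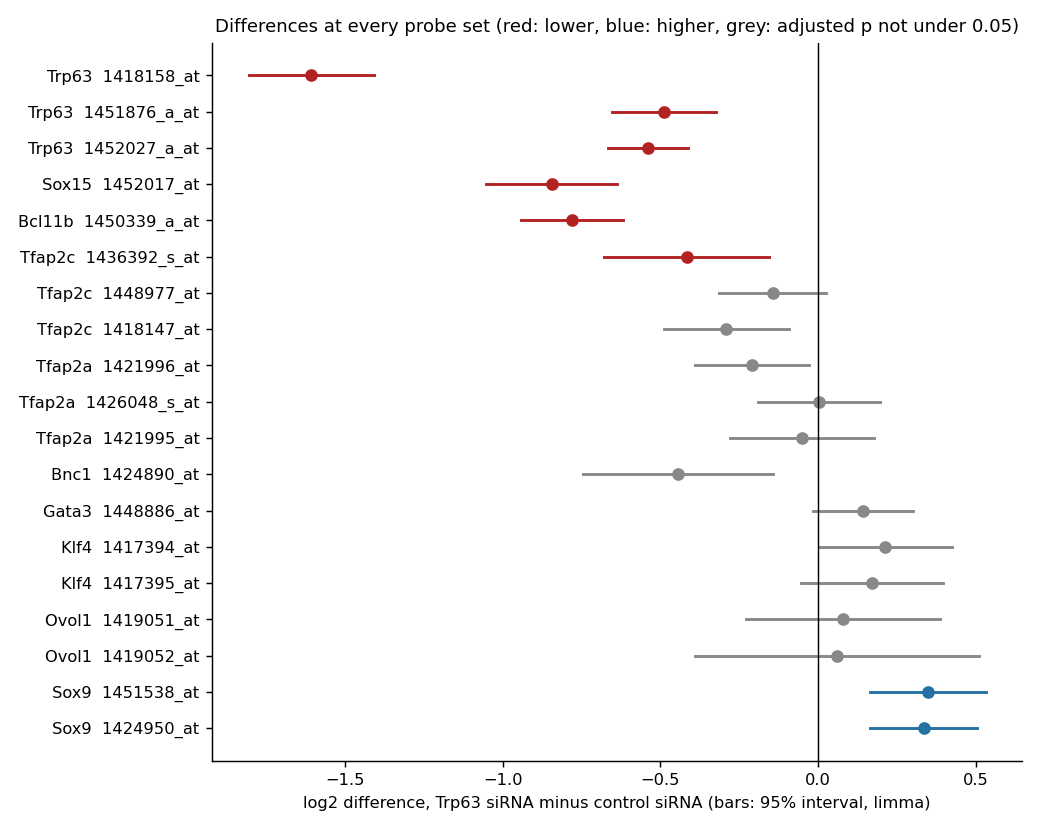
Log2 difference between Trp63 siRNA (n = 5) and control siRNA (n = 2) at each probe set of Trp63 and of the 9 genes, on the log2(intensity + 16) scale, with bars for limma's 95% interval. Sox15 and Bcl11b lie lowest among the 9 genes. They lie above the brightest Trp63 probe set and below the 2 dim ones, whose change is understated on this scale. The 2 probe sets of Sox9 lie above 0, and the 3 probe sets of Tfap2a and of Tfap2c do not coincide.

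The AP-2 genes moved less, and their probe sets differed. Tfap2c encodes AP-2 gamma. Its brightest probe set read 759, 739, 577, 616 and 597 in silenced replicates 1, 2, 3, 4 and 7, against 869.6 and 884 in control replicates 5 and 6. All silenced arrays were below both controls, replicates 1 and 2 by the least. The log2 difference was -0.42 (SE 0.12, limma adjusted p = 0.0404). It was -0.21 in the arrays of high melanocyte level and -0.56 in those of low level, a contrast that was not tested. The second brightest probe set overlapped between groups (356, 316, 309, 304 and 311 against 362 and 345; -0.14, limma adjusted p = 0.231). The dimmest did not overlap and just missed the threshold (282, 277, 231, 235 and 247 against 314 and 313; -0.29, limma adjusted p = 0.0532). The call on Tfap2c was lost on leaving out any of silenced replicates 3, 4 and 7 or either control array (adjusted p in limma from 0.0721 to 0.187), within a range of 0.00383 to 0.187 over all settings. It was also lost with quantile normalisation (0.0505), median centring (0.051) and the spike control covariate (0.054), and for the mean of the 3 probe sets (0.0524).

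Tfap2a encodes AP-2 alpha, which melanocytes also express. Its brightest probe set read 1341, 1261, 1093, 1209 and 1198 in silenced replicates 1, 2, 3, 4 and 7, against 1418 and 1402 in control replicates 5 and 6. The silenced arrays were all lower, replicate 1 by the least. The difference of -0.21 (SE 0.080, 95% interval -0.39 to -0.03) did not pass after adjustment (limma adjusted p = 0.115). It passed with silenced replicate 1 left out (0.0245), with array weights (0.0309) and with melanocyte level as a covariate (0.0447), in a range of 0.0245 to 0.358 over all settings. The other probe sets read 1128, 1099, 989, 980.2 and 933 against 1037 and 1004, and 291, 306, 242, 247 and 254 against 296 and 259.7. Both overlapped between groups, with differences near 0 (0.0041, 95% interval -0.19 to 0.20, and -0.051, 95% interval -0.28 to 0.18). On the sides of the split the 3 probe sets of Tfap2a, from the brightest, differed by -0.12, 0.10 and 0.013 (high) and by -0.26, -0.054 and -0.064 (low). Neither measured AP-2 relative passed (Tfap2b 0.24, limma adjusted p = 0.101; Tfap2d -0.02, limma adjusted p = 0.797).

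Bnc1, the basonuclin gene, read 556, 508, 631, 654 and 654 in silenced replicates 1, 2, 3, 4 and 7, against 707 and 947 in control replicates 5 and 6. All silenced arrays were below both controls, but the controls lay far apart. The log2 difference of -0.44 (SE 0.13, 95% interval -0.75 to -0.14) just missed the threshold (limma adjusted p = 0.0532). In the fit of gene means over probe sets, where Bnc1 has only 1, Bnc1 just passed (limma adjusted p = 0.049). The difference kept its sign in all 19 other settings but passed in only 8 of them. It was -0.65 without control replicate 5, where it passed (limma adjusted p = 0.0347), and -0.24 without control replicate 6, where it did not (0.376). Bnc1 was lower in the arrays of high melanocyte level in both groups. Within them it differed by -0.40, and in those of low level by -0.54. With the split as a block the difference was -0.48 (SE 0.066, limma adjusted p = 0.000768), in a range of 0.000768 to 0.376 over all settings, the highest without control replicate 6.

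None of the 3 factors of differentiation passed the test. Gata3, which also directs T cell development, read 844, 828, 760.3, 786 and 823 in silenced replicates 1, 2, 3, 4 and 7, against 753 and 708 in control replicates 5 and 6. The groups did not overlap, by a narrow margin at replicate 3. The log2 difference was 0.14 (95% interval -0.01 to 0.30, limma adjusted p = 0.202). On the sides of the split Gata3 differed by 0.15 and 0.15. None of the 5 other GATA genes passed, and Gata2 and Gata4 had the smallest p (-0.15 and -0.10, limma adjusted p = 0.109 and 0.222). Gata2 passed with silenced replicate 1 left out (-0.18, limma adjusted p = 0.0337), with array weights (0.0326) and with melanocyte level as a covariate (0.0465).

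Klf4 encodes a zinc finger factor needed for barrier formation. Its brighter probe set read 2219, 2525, 1932, 2034 and 2108 in silenced replicates 1, 2, 3, 4 and 7, against 1866 and 1844 in control replicates 5 and 6. All silenced arrays were above both controls, replicate 2 the most. The log2 difference was 0.21 (95% interval 0.00321 to 0.43, limma adjusted p = 0.158). The second probe set overlapped (2078, 2256, 1779, 1887 and 1889 against 1901 and 1609; 0.17, limma adjusted p = 0.284). On the sides of the split the brighter probe set differed by 0.34 (high) and 0.13 (low) and the other by 0.19 and 0.20. Blocked on the melanocyte split, both probe sets passed (0.23 and 0.19, limma adjusted p = 0.0392 and 0.026), within ranges of 0.0392 to 0.387 and 0.026 to 0.838 over all settings. Under that block 13.6% of all genes fell and 11.7% rose. Of 13 measured KLF relatives, Klf5, a factor of proliferating epithelium, fell from 2111 to 1552 (-0.45, SE 0.13, limma adjusted p = 0.0413) and 12 did not pass. Klf5 lost its call on leaving out any of silenced replicates 3, 4 and 7 or either control array (adjusted p in limma from 0.0701 to 0.196), with median centring (0.0544), with eBayes without trend (0.0525) and with the spike control covariate (0.0607).

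Ovol1 encodes a zinc finger repressor of late epidermal differentiation. Its brighter probe set read 782, 741, 576, 625 and 621 in silenced replicates 1, 2, 3, 4 and 7, against 712 and 554 in control replicates 5 and 6. The groups overlapped, with control replicate 5 within the silenced range and control replicate 6 below it. The values were ordered by the melanocyte split: silenced replicates 1 and 2 and control replicate 5 were the 3 highest. The same arrays were highest at the second probe set (361, 337, 231, 246 and 258 against 335 and 217). Between the sides of the split Ovol1 differed by 0.32 among silenced arrays and 0.35 among controls at the brighter probe set. The group differences were 0.08 (95% interval -0.23 to 0.39) and 0.06 (95% interval -0.39 to 0.51), with limma adjusted p = 0.73 and 0.865. With the split as a block they were 0.11 (SE 0.063) and 0.11 (SE 0.064), and neither passed (limma adjusted p = 0.227 and 0.236). On the sides of the split they were 0.094 and 0.057 (high) and 0.13 and 0.16 (low). Its relative Ovol2 did not pass either (0.11, limma adjusted p = 0.200).

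Over the 16 probe sets, 3 fell, 2 rose and 11 did not pass, where 8.16% of all probe sets fell and 7.83% rose. The silenced arrays lay wholly below both controls at 6 probe sets and wholly above at 4, and overlapped at 6; over all probe sets those shares were 22.4% below and 14.2% above, 36.6% in all.

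The 9 genes were set beside the brightest Trp63 probe set, at which the share left was lower than for any of them. There Trp63 kept 29.2%, 31.4%, 32.2%, 33.2% and 34.5% of its control level in silenced replicates 3, 7, 4, 2 and 1. The brightest Tfap2c probe set had the same order of arrays, with 65.8%, 68.1%, 70.2%, 84.3% and 86.5%. Bcl11b kept 53.2%, 55.8%, 58.6%, 57.8% and 61.3% in that order, and Sox15 56.8%, 55.5%, 51.4%, 47.5% and 61.1%. From lowest to highest, the second brightest Tfap2c probe set ran through replicates 4, 3, 7, 2 and 1, and the dimmest through 3, 4, 7, 2 and 1. Replicates 1 and 2 were also the silenced arrays of high melanocyte level. For Tfap2c the depth of Trp63 loss and the split cannot be told apart. Replicate 3 had the least Trp63 at its brightest probe set and among the most at the other 2, which were dim. It was the lowest silenced array for 7 of the 9 genes. Among them were Sox9, Gata3 and Klf4, whose silenced values were above both controls at the brightest probe set. The share of all genes lowest on replicate 3 was not counted, so the 7 are not read as a trait of the 9 genes. The 5 silenced arrays are too few for a correlation across samples, and the Trp63 range is narrow, so the order is a description of 1 of the 3 Trp63 probe sets.

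**Figure D3:**
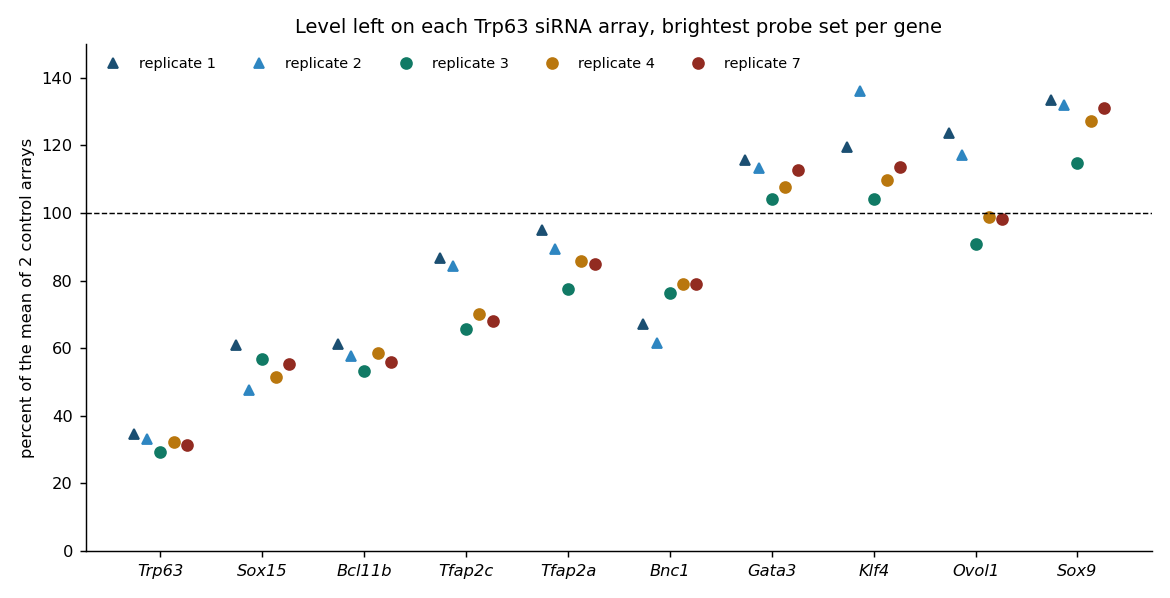
Intensity on each of the 5 Trp63 siRNA arrays as percent of the mean of the 2 control arrays (dashed line at 100), brightest probe set per gene, with 1 colour per replicate and triangles for the arrays of high melanocyte marker level. Trp63 lies between 29.2% and 34.5%, Sox15 and Bcl11b between 47.5% and 61.3%, and Sox9 between 115% and 133%.

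Of 29 other measured transcription factors of the epidermis and its appendages, 3 fell, 4 rose and 22 did not pass. Snai2, a repressor of basal keratinocytes, fell from 1691 to 715 (log2 difference -1.22, limma adjusted p = 1.1e-05), and Pou3f1, a POU factor, from 885 to 452 (-0.91, limma adjusted p = 0.00303). Id3, an inhibitor of basic helix-loop-helix factors, rose from 783 to 1217 (0.63, limma adjusted p = 0.000649). Prdm1, which encodes the repressor Blimp1, rose from 211 to 516 (1.26, limma adjusted p = 0.00785) and lost its call without control replicate 6 (0.0962), when 1 gene of the list rose. Pou3f1 differed by -0.61 without control replicate 6 and by -1.22 without control replicate 5, and passed in both.

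Of 12 genes taken from general knowledge as targets of the 9 factors, 5 fell, none rose and 7 did not pass. Krt14, Krt5 and Egfr, listed as targets of AP-2 proteins, differed by -0.20, -0.32 and -0.34 (limma adjusted p = 0.000455, 0.00212 and 0.00722). Id2, which Ovol1 represses, differed by -0.43 (limma adjusted p = 0.0153). Among the 7 that did not pass, Erbb2 differed by -0.02 (limma adjusted p = 0.894), Cdkn1a by 0.13 (0.118) and Cebpa by -0.65 (0.0621). The part of the AP-2 genes in these differences was not tested. Egfr and Id2 lost their calls without either control, and without control replicate 6 the count that fell was 3.

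For each member past the threshold, the gene with the closest pattern over the 7 arrays was sought among genes at or above the median level. Sox15 was nearest to Pwp1 (Pearson r = 0.997), Bcl11b to Anxa7 (r = 0.997), Tfap2c to Sytl1 (r = 0.999) and Sox9 to Krt23 (r = 0.992). Each gene was picked for the highest coefficient among all genes searched, over only 7 arrays, so values near 1 follow from the choice. On deviations from the group means the coefficients of these same pairs were 0.979, 0.895, 0.996 and 0.960. These carry the same limit, as the pairs were already picked on the same 7 arrays.

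Other cell types and RNA quality were set beside these results. None of 12 melanocyte markers passed, and their summed level was 7453 to 12774 on silenced arrays and 7321 to 10836 on controls. Of 14 fibroblast markers 2 rose (Col1a1 and Col5a2), with a sum of 2580 to 2764 against 2074 to 2406. None of 8 endothelial markers passed, with sums of 1093 to 1223 and 1127 to 1228. Of 7 Merkel cell markers only Sox2, dim as above, rose, and of 6 sebaceous markers 3 rose and 1 fell. The 3' minus 5' log2 difference of control probe sets was lower with Trp63 siRNA on every silenced array, by -0.09 for Gapdh and -0.17 for beta-actin (exact two-sided permutation test over 21 splits, p = 0.0476, the smallest it can give, and 0.131 after Benjamini-Hochberg adjustment over 11 measures). The part of RNA quality in the results on the 9 genes was not tested.

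**Figure D4:**
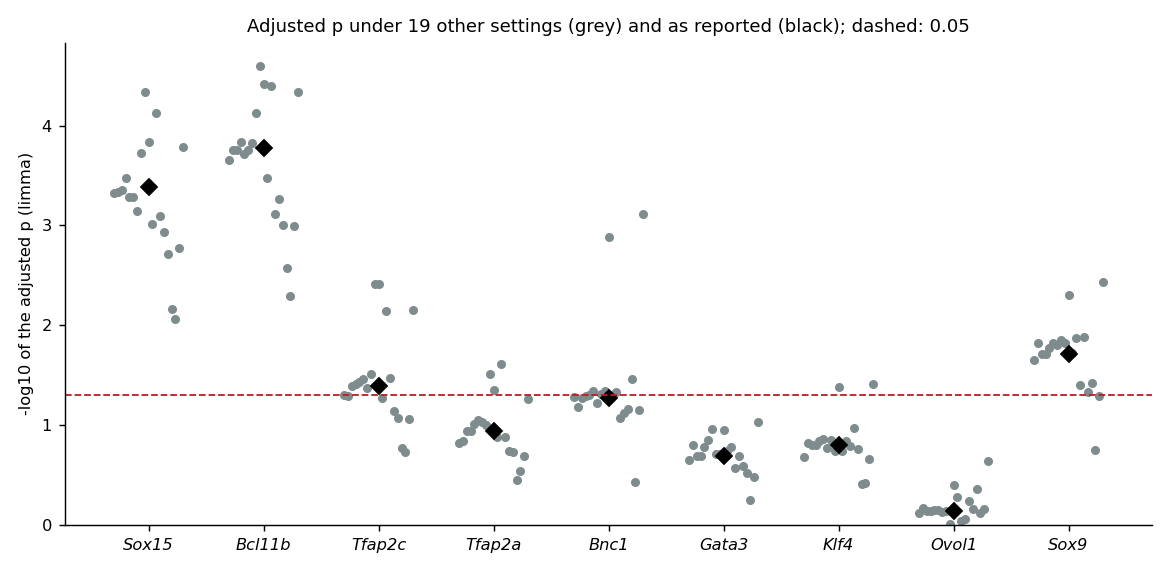
Minus log10 of limma's adjusted p for the brightest probe set of each gene as reported (black diamonds) and under 19 other settings (grey points, in a fixed order of settings), with the threshold of 0.05 dashed. Sox15 and Bcl11b stay above the line in all settings. Tfap2c, Bnc1, Sox9, Tfap2a and Klf4 fall on both sides, Tfap2a and Klf4 above it in only 3 and 2 of the 19. Gata3 and Ovol1 stay below it.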

How the data were processed

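Total RNA, extracted with Trizol and made into biotinylated cRNA per the labels' protocols, had been hybridised to 7 Affymetrix arrays. The deposited table gave 1 linear intensity per probe set and array. Summarisation, background correction and normalisation are not given in the sources used here. Array medians lay between 207 and 214, so the deposited intensity values were used without further scaling. Of 22690 probe sets, 64 controls were left out. The annotation gave 20380 of the rest 1 symbol, 691 several and 1555 none; 20351 matched RefSeq by Entrez ID. Each gene was counted once, at its brightest probe set.

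Values became log2(intensity + 16), which understates the change of dim genes. Groups, taken from the titles, were compared with limma 3.58.1 (R 4.3.3; lmFit, eBayes with trend), adjusted by Benjamini-Hochberg over 22626 probe sets. On simulated arrays of these groups, limma recovered 16, 46, 50 and 50 of 50 probe sets changed by 0.25, 0.5, 1 and 2 (log2), with 18 false calls. The members, lists and tests were chosen with earlier results of these data known. Named beside the members were the 4 genes at most of each list that passed with the lowest p, the 2 of lowest p in a list where no gene did, and the closest pattern per called member. Sox4 and the named markers of other cell types were added after their values were seen. Figures used matplotlib 3.10.9 in Python 3.11.15.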

Additional observations from a re-analysis of the deposited data

Results flagged for a closer look

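Silenced replicate 1 lay far from the other silenced arrays at the second brightest probe set of Tfap2c, with 356 against 304 to 316 in the other 4. Its gap to the nearest array was 0.771 of the range of the group, above Dixon's critical value at 95% for 5 values. This was 1 of 19 probe sets checked, and chance gives about 1 in 20.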

How the results depend on the processing

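No paired analysis was possible because the groups share no replicate number. The alternatives were another scaling (quantile or median), a pseudocount of 1 or 64, leaving out the dimmest 25% or 50% of probe sets, other eBayes settings (no trend, robust), array weights, melanocyte or spike control level as a covariate, gene means over probe sets, and dropping single arrays; the melanocyte split as a block was added after seeing the data. Over the 16 probe sets and 19 settings, 257 values kept direction and side of the threshold, 24 came to pass, 12 no longer passed and 11 changed sign.

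The 3 member genes that fell were 5 with array weights and with melanocyte level as a covariate, 2 with quantile normalisation, median centring and the spike control covariate, and 2 to 5 over the arrays left out. The 1 that rose was 2 with melanocyte level as a covariate and as a block, and 0 to 1 over the arrays left out. The 1847 probe sets that fell were 2823 with array weights, 2928 with the covariate, 2895 with the block and 598 to 3176 over the arrays left out, and the 1771 that rose were 776 to 2326 over the arrays left out.

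Signs changed only at uncalled probe sets. With array weights Ovol1 gave -0.0031 and -0.063 and the second Tfap2a probe set -0.054. Over the arrays left out the Ovol1 probe sets ran from -0.10 to 0.26 and from -0.24 to 0.36 (-0.024 and -0.00059 without silenced replicates 1 and 2 at the dimmer), and those of Tfap2a from -0.031 to 0.037 and from -0.14 to 0.037. Tfap2d gave 0.0082 with quantile normalisation and -0.090 to 0.049 over the arrays left out. The cause of these shifts was not tested. Depth is not defined for arrays; their number limits what can be detected, and leaving out a control leaves 1, assumed to vary like the other group.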
